A study of Mus musculus with 36 samples.

Results

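The genes of mitochondrial oxidative phosphorylation were followed in the brain of mice that lost Dicer in adult neurons. The members were the genes of the nuclear genome whose annotated symbol starts with Ndufa, Ndufb, Ndufc, Ndufs, Ndufv, Sdh, Uqcr, Cox4, Cox5, Cox6, Cox7, Cox8 or Atp5, without Cox7a1, which gave 93 of the 18193 genes that had a probe set of their own on the array. Each gene was read from its probe set with the highest mean in the tissue; 40 of the 93 had 1 probe set only. The list held 6 core subunits, 28 accessory subunits and 8 assembly factors of complex I, 4 subunits and 4 assembly factors of complex II, 8 subunits of complex III, 18 of complex IV and 17 of complex V.

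Affymetrix arrays, 36 in all, were hybridised with RNA of the cortex, hypothalamus or hippocampus, and each of the 12 groups held 3 animals. All mice were on a C57BL/6J background and carried both the Camk2a-CreERT2 transgene (Cre+) and Dicerlox/lox alleles, the controls included. At 8 weeks of age cKO mice received 10 mg of tamoxifen over 5 days and control mice received the vehicle, a mixture of sunflower seed oil and ethanol. Tissues were taken 4 or 8 weeks after induction. The Camk2a promoter drives the recombinase in part of the neurons only, so that other cells kept an intact Dicer. No array came from a mouse that received tamoxifen without floxed alleles, and an effect of tamoxifen itself cannot be told apart from that of the excision.

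The respiratory chain passes electrons from NADH (complex I) or succinate (complex II) through complexes III and IV to oxygen, and the protons pumped on the way drive ATP synthase (complex V). Neurons depend on this route for most of their ATP. Some subunits exist as tissue isoforms, such as the heart and skeletal muscle forms Cox6a2 and Cox8b, and the assembly factors help to build the complexes without being part of them. Regulation of these nuclear genes involves NRF1, the ETS factor GABP and YY1, which bind at promoters.

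Promoter sequences of RefSeq (GRCm38.p6), from 250 bases before to 50 bases after the start of transcription, were matched by symbol for 77 of the 93 members. Those without one were Atp5a1, Atp5mpl, Cox4i1, Cox4i2, Cox6a2, Cox6c, Cox8c, Ndufa2, Ndufa4l2, Ndufaf6, Ndufb9, Ndufs1, Sdhc, Uqcrb, Uqcrc2 and Uqcrq. The core of the NRF1 motif, TGCGCA, reads the same on both strands. It was present for 20 or 26.0% of the 77 members, against 14.2% of the tested genes with a window and 8.79% of all 27025 gene symbols. For the ETS core CCGGAAG the shares were 28.6%, 16.9% and 9.93%. For the YY1 core AAGATGG they were 14.3%, 7.83% and 7.28%, and both were searched on both strands. The CCAAT box, again on both strands, was found in 41.6% of members and 42.0% of tested genes. A window with at least 1 of the first 3 motifs was present for 43 members or 55.8%, against 33.3% of tested genes and 22.8% of all symbols. Neighbouring motifs can share letters at their ends, as the ETS core and the YY1 core can. A match describes the letters of the window and not a bound site.

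The stretches from 150 bases before to 20 bases after the start are shown for 5 members that the results below return to, 5′ to 3′ on the strand of the gene, with matches to the 3 motifs in capitals. Sdhd and Sdhaf3 hold an NRF1 and an ETS core, Ndufs3 an ETS core on each strand and Cox7c a YY1 core across the start, while Cox8b, a muscle isoform, holds none of them.
Sdhd (chr9:50603830-50603999, minus strand): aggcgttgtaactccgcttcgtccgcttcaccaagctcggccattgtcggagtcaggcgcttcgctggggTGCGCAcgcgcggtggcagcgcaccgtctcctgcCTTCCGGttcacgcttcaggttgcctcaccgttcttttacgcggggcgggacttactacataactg
Ndufs3 (chr2:90904702-90904871, minus strand): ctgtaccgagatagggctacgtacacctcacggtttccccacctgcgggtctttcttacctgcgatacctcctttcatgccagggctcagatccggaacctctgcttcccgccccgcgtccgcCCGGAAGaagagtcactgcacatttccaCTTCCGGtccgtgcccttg
Sdhaf3 (chr6:6955868-6956037, plus strand): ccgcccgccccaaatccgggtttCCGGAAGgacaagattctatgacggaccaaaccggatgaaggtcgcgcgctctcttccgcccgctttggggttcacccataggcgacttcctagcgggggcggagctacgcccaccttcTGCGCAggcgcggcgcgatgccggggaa
Cox7c (chr13:86046776-86046945, minus strand): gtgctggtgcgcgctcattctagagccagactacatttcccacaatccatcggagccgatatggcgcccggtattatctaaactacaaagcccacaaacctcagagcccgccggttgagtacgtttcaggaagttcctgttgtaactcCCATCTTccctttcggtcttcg
Cox8b (chr7:140900427-140900596, minus strand): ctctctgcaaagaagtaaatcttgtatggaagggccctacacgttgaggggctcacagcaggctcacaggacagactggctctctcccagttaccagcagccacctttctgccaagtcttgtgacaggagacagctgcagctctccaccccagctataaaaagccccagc

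The labels were first set against the arrays. The mean log2 level of the cortex list was 8.56 to 8.97 in the 12 cortex arrays. That of the hypothalamus list was 9.93 to 10.4 in the 12 hypothalamus arrays. Of the 7 cortex markers, Rorb and Rprm had lower medians in the cortex (7.60 and 9.45) than in the hypothalamus (8.74 and 9.87). The tissues were normalized separately. The arrays labelled hippocampus did not carry all of the 8 hippocampal markers listed. In 11 of the 12 arrays Neurod6, a transcription factor of pyramidal neurons, lay between 2.68 and 3.31, Spink8, a marker of CA1, between 3.31 and 3.82, and Dsp, a marker of granule neurons, between 3.24 and 3.69, while the lowest third-highest value kept for testing was 4.25, so these 3 genes were not tested. Prox1, the transcription factor of granule neurons, was near that value, at 4.02 to 4.78. The other 4 markers were above it in the same arrays: C1ql2 at 5.89 to 6.72, Fibcd1 at 6.66 to 7.67, Wfs1 at 8.65 to 9.17 and Zbtb20 at 8.73 to 9.66. They do not set these arrays apart as hippocampus. In the 12 hypothalamus arrays C1ql2 (6.80 to 7.21), Wfs1 (9.67 to 10.08), Zbtb20 (9.74 to 10.16) and Prox1 (6.437 to 7.515) read higher. Fibcd1 (5.846 to 6.075) read lower there. The mean of the hippocampus list was 5.64 to 8.50 in the arrays labelled hippocampus and 6.61 to 6.85 in the hypothalamus arrays. Of 14 markers of excitatory neurons 11 were tested there, and Slc17a7, the vesicular glutamate transporter of forebrain neurons, was not (3.74 to 4.41). Slc17a6, also on that list, was at 10.87 to 11.38 in the same 11 arrays. The array of cKO replicate 1 at 8 weeks stood apart and was the highest of the 12 for all 8 hippocampal markers. It had Neurod6 at 9.05, Spink8 at 8.36 and Dsp at 8.11, and Slc17a7 at 7.56. Its Slc17a6, at 10.55, was the lowest of the 12. The main results at 8 weeks are therefore also given without that array. Dicer1, on its brightest probe set, differed between cKO and control by -0.095 to 0.10 on the log2 scale over the 6 comparisons; where its probes lie relative to the excised exon was not given in the sources used here.

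The members were among the brighter genes of the arrays and varied little between animals. All 93 passed the filter that kept 15000 genes in each tissue, and 65, 65 and 67 (cortex, hypothalamus, hippocampus) were among the 1000 genes with the highest third-highest value. The median SD between animals of a group, on the log2 scale, was 0.0902 for the members and 0.149 for all genes tested in the cortex. The corresponding values were 0.0716 and 0.103 for hypothalamus, 0.0704 and 0.118 for hippocampus arrays. Within groups the members moved together from array to array. The first principal component of their deviations from the group means held 41.4% (cortex), 39.4% (hypothalamus) and 51.7% (hippocampus) of the variance, against 36.8%, 25.7% and 21.8% for all genes tested.

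**Figure D1:**
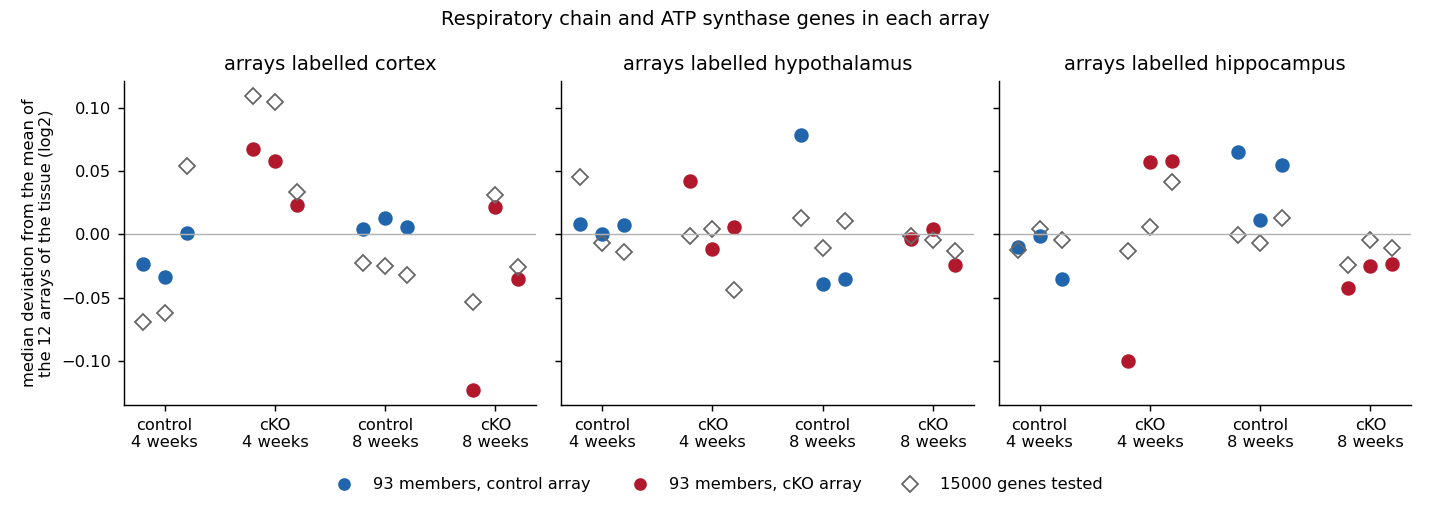
Median deviation of the 93 members (filled circles) and of the 15000 genes tested (open diamonds) from the mean of the 12 arrays of the tissue, on the log2 scale, 1 pair of symbols per array, 3 animals per group. In the arrays labelled hippocampus the 3 cKO arrays at 8 weeks lie between -0.042 and -0.023 and the 3 controls between 0.012 and 0.065, while the diamonds of both groups stay within 0.024 of 0.

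The first comparison asked whether the cortex of cKO mice differed in these genes from that of controls 4 weeks after induction. No member passed the test (limma, Benjamini-Hochberg over all genes, FDR 15%), where 8.39% of the 15000 genes did. At an unadjusted p under 0.05, 8 members were higher and 1 was lower in cKO, against 18.4% and 3.07% of all genes. Of the 93 members, 29 lay below 0, where 25.5% of all genes did, and the median difference was 0.075 for the members and 0.12 for all genes, both on the log2 scale. In 19 members every cKO array was above every control array, against 17.7% of all genes, and in 1 member every cKO array was below, against 2.30%. The difference of the members was thus, on the median, below that of the array as a whole, which was shifted by 0.12. When each array was centred on its own median, the median of all genes became -0.020 and that of the members -0.061, and 70 of 93 members lay below 0, against 55.0% of all genes, with 12 members lower and none higher at p under 0.05, against 9.27% and 5.78% (0 members called by limma, 0.707% of all genes). Directions at this time thus depend on the scaling, and the values below are on the deposited scale.

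The count also depended on single arrays. In the cortex at 4 weeks control replicate 3 lay nearer to the cKO arrays than to the other controls (median deviation of all genes 0.054, against -0.069 and -0.062 in the other controls and 0.034 to 0.11 in cKO). Without it 29 members (31.2%) were called, 22 higher and 7 lower, against 42.5% of all genes. Without cKO replicate 3 there were 6 (6.45%), against 19.9% of all genes. The share of members called was thus below that of all genes in both. Markers of the leptomeninges, the membranes on the brain surface, differed between the groups in this comparison as well. All 21 were above 0 and 14 of them were called higher, with a median difference of 0.72. Their mean level was 7.64 to 7.77 in cKO and 6.85 to 7.31 in control arrays. The part of these cells in the members' values was not tested, and in bulk tissue fewer cells of a type cannot be told apart from less RNA per cell.

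Among complex II genes Sdhd, the membrane anchor of succinate dehydrogenase, had the lowest p of all members. The cKO mice had log2 levels of 10.08, 10.20 and 10.03, the controls of 9.85, 9.88 and 9.96. Every cKO array was above every control array, by less than 0.1 between the nearest. The difference was 0.21 (SE 0.083, adjusted p = 0.187 from limma). On its probe set with the highest variance it was -0.023, so that its probe sets disagreed. Sdhb, the iron-sulfur subunit, differed by 0.099 and Sdhc, the other anchor, by -0.11. Sdhc, Ndufaf4 and Atp5pb are given here and below as the lowest of their classes and were chosen after their values were seen.

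Core subunits of complex I carry the redox centres and the proton channels. The difference was 0.25 for Ndufs8, an iron-sulfur subunit (11.94 ± 0.058 in cKO and 11.69 ± 0.16 in control mice; SD, n = 3; adjusted p = 0.231 from limma), and 0.18 for Ndufs3, with an interval of -0.0021 to 0.36. In both genes every cKO array was above every control. The median of the 6 core subunits was 0.13, and 5 of them were above 0. Of the 28 accessory subunits 13 were below 0, with a median of 0.019. They held the widest range of any class, from -0.28 to 0.48. Ndufb4, of the membrane arm, was at 4.91, 5.12 and 4.66 in cKO and at 4.08, 4.18 and 4.98 in control mice. Here control replicate 3 lay among the cKO arrays and the groups overlapped (difference 0.48, SE 0.21, adjusted p = 0.219 from limma). Its only probe set read close to the lowest level kept in the cortex, 3.99. Ndufb10, another subunit of that arm, was the 1 member lower at p under 0.05 (9.86, 9.70 and 9.61 in cKO, 10.19, 10.14 and 9.68 in control mice; difference -0.28, SE 0.13, adjusted p = 0.227). Again it was control replicate 3 that lay within the range of cKO.

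Assembly factors of complex I were on both sides of 0. Ndufaf3, which acts early in the building of the enzyme, differed by 0.28 (9.77, 9.62 and 9.79 in cKO, 9.29, 9.35 and 9.70 in control mice), and Ndufaf7, another assembly factor, by 0.23. Ndufaf4 lay at -0.17, the lowest of the 8. In complex III, where 7 of 8 members were above 0, the Rieske iron-sulfur protein Uqcrfs1 was at 10.86, 10.91 and 10.80 in cKO and at 10.61, 10.64 and 10.74 in control mice, with no overlap (difference 0.19, SE 0.085, adjusted p = 0.216 from limma). The small subunit Uqcr10 differed by 0.17 (adjusted p = 0.345 from limma).

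In complex IV, the 18 members had a median of 0.082. Cox7c, a small structural subunit, was read from a dim probe set that carries this gene alone, at 6.18, 6.13 and 6.36 in cKO and 5.83, 6.07 and 6.05 in control mice. Its 2 groups were apart at 4 weeks and again at 8 weeks, with cKO above both times. The 4-week difference was 0.24 (SE 0.10, adjusted p = 0.202 from limma). Complex V showed no member at p under 0.05; Atp5g2, 1 of the genes for the c-ring subunit, differed by 0.25, Atp5c1, the gamma subunit of the central stalk, by 0.14, and Atp5pb, of the peripheral stalk, was lowest at -0.15.

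The isoform pairs showed no common order of tissue form and general form. The general forms Cox4i1, Cox6a1, Cox6b1 and Cox8a differed by 0.042, -0.037, 0.089 and 0.13. Their partners Cox4i2, the lung form, Cox6a2 and Cox8b, the muscle forms, and Cox6b2, the testis form, differed by -0.30, 0.12, -0.053 and 0.27. Cox4i2 was at 4.38, 4.62 and 3.97 in cKO and at 4.54, 4.73 and 4.60 in control mice, with overlap and near the lowest level kept. Ndufa4, now counted to complex IV, differed by 0.075 and its hypoxia-responsive relative Ndufa4l2 by 0.23. Atp5g1, Atp5g2 and Atp5g3, which encode 1 mature protein, differed by 0.12, 0.25 and -0.034. None of these was called (limma; unadjusted p under 0.05 for Cox6b2 only), and centring the arrays turned the sign of Cox4i1, Cox6a2, Cox6b1, Cox8a, Ndufa4 and Atp5g1.

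**Figure D2:**
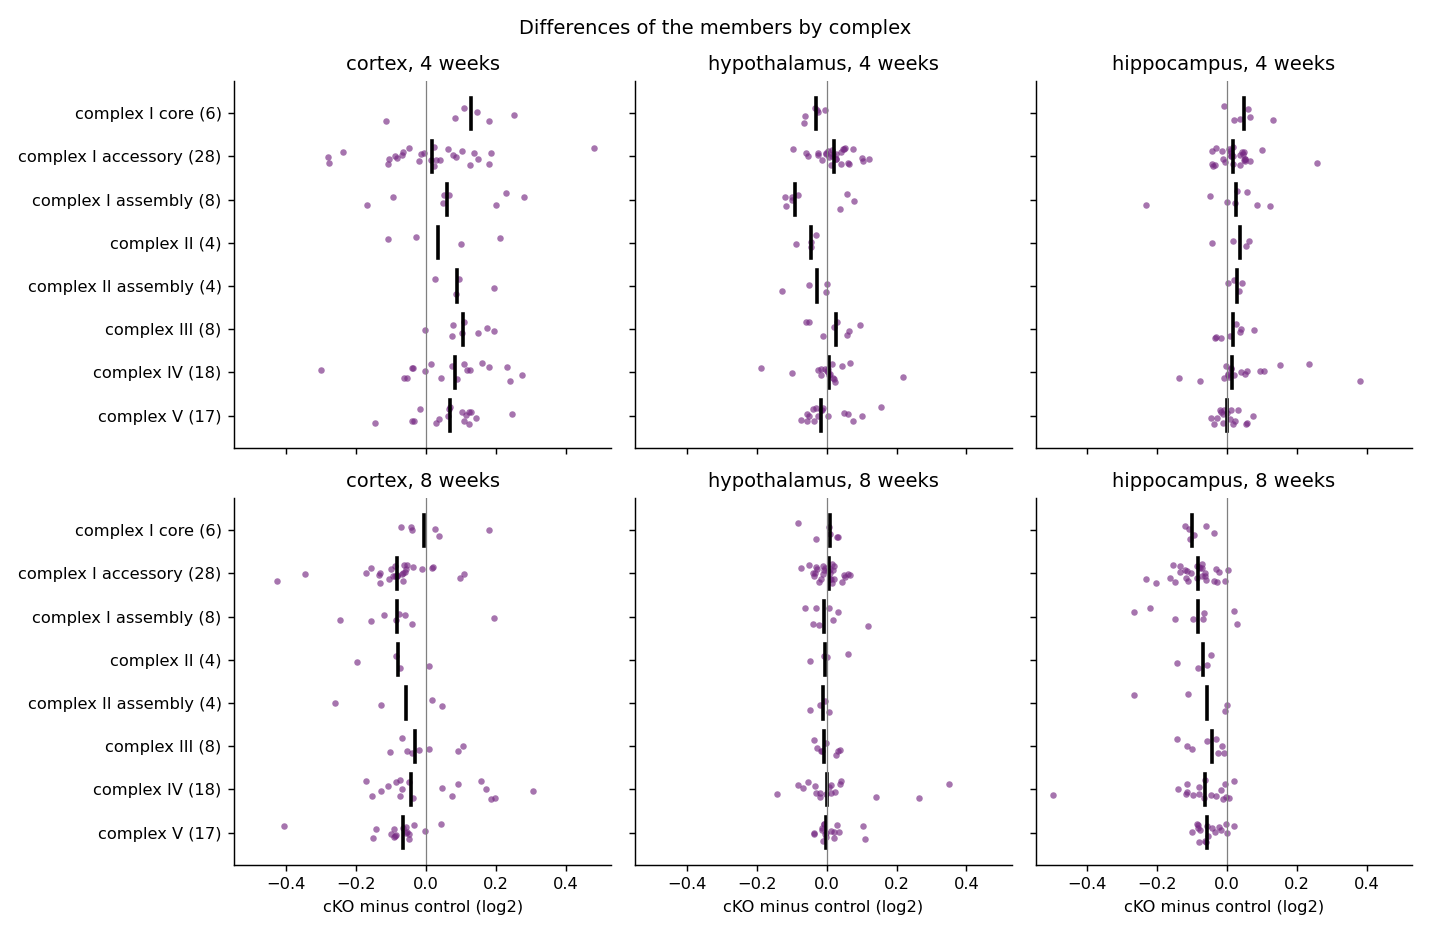
Difference between cKO and control mice (log2) of each member (dot) in the 6 comparisons, by class, with the number of members in brackets and the median of the class as a black bar. At 8 weeks in the arrays labelled hippocampus the medians of all 8 classes lie below 0, from -0.10 for the complex I core to -0.045 for complex III.

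At 8 weeks in the cortex, none of the 93 members was called (0% of all genes were; limma, FDR 15%), 1 was higher and 2 were lower at p under 0.05, against 2.61% and 2.08% of all genes. However, 70 of 93 lay below 0, where 48.6% of all genes did, and the median difference was -0.066, against 0.0040 for all genes. Centring the arrays left 70 members below 0, against 49.6% of all genes. In 23 members every cKO array was below every control array (7.16% of all genes) and in 3 every cKO array was above (6.93%). Complex V had 16 of 17 members below 0 and the accessory subunits of complex I 24 of 28. The size rested partly on cKO replicate 1, whose members had a median deviation of -0.12, while those of cKO replicates 2 and 3 were at 0.022 and -0.035. Without it the median was -0.017 and 51 members, the fewest in any omission, were below 0.

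Sdhaf3, a factor for the iron-sulfur subunit of complex II, was at 7.61, 7.68 and 7.96 in cKO mice 8 weeks after induction and at 8.05, 8.01 and 7.98 in controls. All cKO values were below the controls, replicate 3 narrowly. The difference was -0.26 (SE 0.097, adjusted p = 0.945 from limma). For Ndufc1, a small accessory subunit of complex I, it was -0.42, with 2 controls at 12.12 and 12.07 and the third at 11.58, inside the cKO range of 11.36 to 11.60. Ndufs1, the largest core subunit, was higher, at 10.19, 10.12 and 10.01 against 9.98, 9.95 and 9.85 (difference 0.18, SE 0.083, unadjusted p = 0.0492 from limma).

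The change at 8 weeks minus the change at 4 weeks was tested as the interaction of time and treatment. In the cortex no member was called (0.00667% of all genes, which is 1 gene; limma, FDR 15%), none was higher and 2 were lower at p under 0.05 (2.19% and 7.55% of all genes). Of the members 82 were below 0, where 73.0% of all genes were, with medians of -0.12 and -0.11. On centred arrays 43 members were below 0, against 45.1% of all genes, and the median was 0.010, so this shift was that of the whole array. Sdhd had the lowest p (-0.29, SE 0.12, adjusted p = 0.485 from limma), followed by Ndufaf6, an assembly factor of complex I, at -0.36 and by Sdhaf3 at -0.29. The 3 cortex arrays that stand apart in earlier work on these data were then left out (cKO and control replicate 3 at 4 weeks, cKO replicate 2 at 8 weeks). Without them 35 members or 37.6% were called, 33 of them lower, against 40.4% of all genes. These arrays were picked from the same data, so the count without them is a description and no test.

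In the hypothalamus the members stayed close to 0. No member was called at either time (0% of all genes at both; limma, FDR 15%). At 4 weeks 2 were higher and none lower at p under 0.05, against 1.08% and 1.65% of all genes, 46 of 93 were below 0 (61.5% of all genes), and their median was 0.0016. At 8 weeks 1 was higher and none lower (4.49% and 2.79%), 48 were below 0 (55.2%), and the median was -0.0012. Groups were apart with cKO above in 5 members at 4 weeks (2.35% of all genes) and in none at 8 weeks (5.31%), and with cKO below in 6 (4.62%) and in 1 (7.83%). The 95% interval of the difference lay within 0.25 of 0 for 75 members at 4 weeks and for 81 at 8 weeks, and within 0.5 for 92 and 91. In the cortex the same counts within 0.25 were 28 at each time. Markers of microglia were above 0 in 15 of 15 genes at 8 weeks, 13 of them at p under 0.05 (median 1.34, 0 called by limma). Their mean levels were 10.2, 9.82 and 8.49 in cKO replicates 1, 2 and 3 and 8.23 to 8.53 in controls. The members' medians in those 3 cKO arrays were -0.0036, 0.0041 and -0.024. What part these cells had in the members' values was not tested.

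Atp5k, subunit e of the ATP synthase, was at 12.35, 12.46 and 12.44 in cKO and at 12.18, 12.27 and 12.33 in control hypothalamus at 4 weeks, without overlap (difference 0.16, SE 0.068, adjusted p = 1.00 from limma). Ndufa4l2 differed by 0.22 at 4 weeks, and the change of this difference to 8 weeks, -0.36, had the lowest interaction p in this tissue (0.0230 before adjustment, limma). Ndufa3, an accessory subunit of complex I, differed by 0.12 at 4 weeks. At 8 weeks Cox6a2 was highest in the members, at 8.45, 7.90 and 7.91 in cKO against 7.60, 7.91 and 7.71 in control mice. Only cKO replicate 1 lay clear of the controls (difference 0.35, SE 0.14, adjusted p = 0.602 from limma). Microglial markers were high in that array and also in cKO replicate 2, whose Cox6a2 lay within the range of controls. Their part in this value was not tested. Atp5e, the epsilon subunit, differed by 0.11 and Cox7a2l, which links complexes III and IV, by -0.081. Signs of RNA quality differed between these groups at 8 weeks: the 3′ minus 5′ signal of actin differed by -0.25 and that of Gapdh by -0.12, each with the smallest p the design allows (exact permutation p = 0.1, two-sided). With the actin signal as a covariate Cox6a2 differed by 0.60 and Atp5e by -0.058. For the interaction no member was called (0% of all genes), none was higher and 1 lower at p under 0.05 (3.43% and 1.29%), and 46 were below 0 (47.0%); after Ndufa4l2 came Ndufa2 at -0.14 and Cox6a2 at 0.34.

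**Figure D3:**
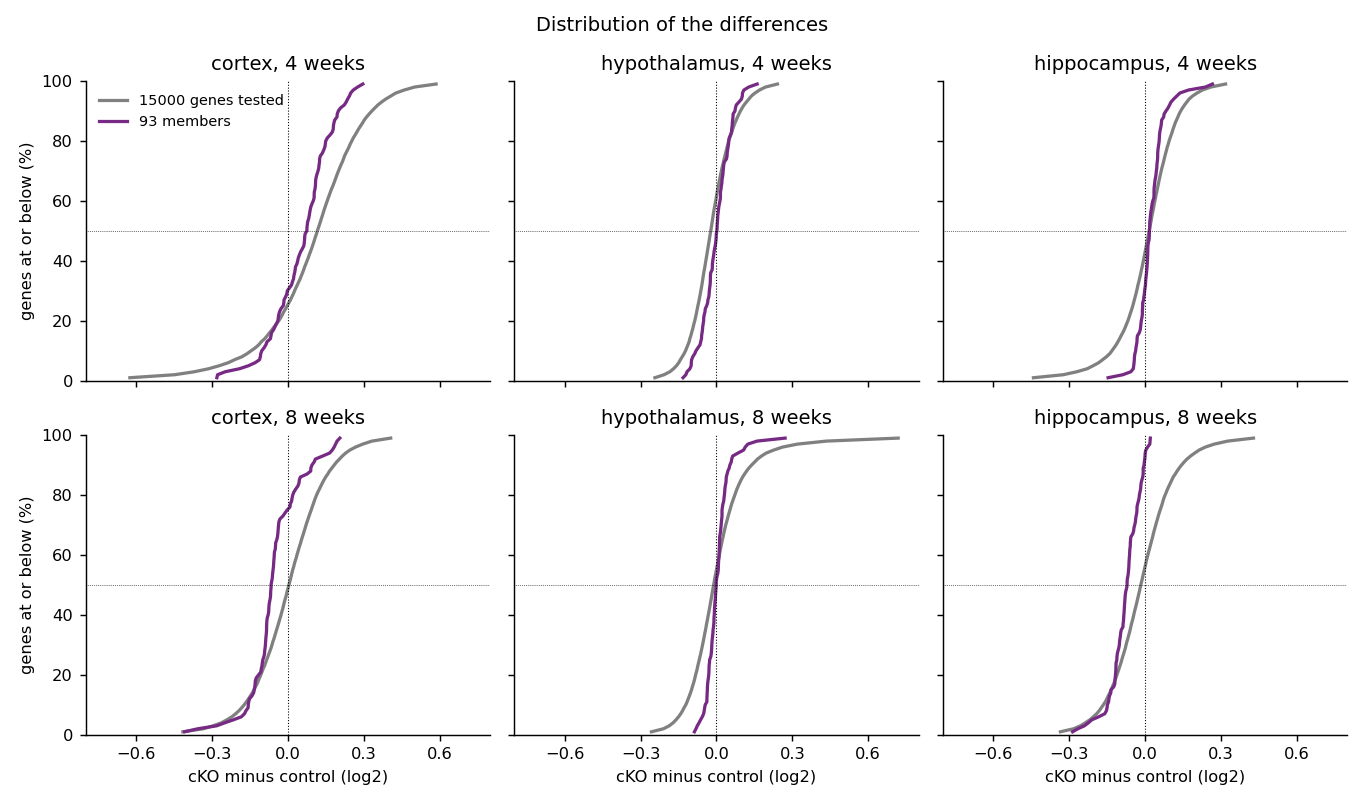
Cumulative distribution of the difference between cKO and control mice (log2) over the 93 members (purple) and the 15000 genes tested (grey), 1 panel per tissue and time; the y axis gives the percentage of genes at or below a difference. At 8 weeks in the arrays labelled hippocampus the purple curve crosses 0 near its top (86 of 93 members below 0, median -0.071), whereas the grey curve crosses near its middle (56.2%, median -0.017).

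In the arrays labelled hippocampus no member was called at 4 weeks (0% of all genes; limma, FDR 15%), 1 was higher and none lower at p under 0.05 (2.52% and 2.21% of all genes), and 29 of 93 were below 0, against 42.9%. Medians were 0.017 for the members and 0.016 for all genes. Groups were apart with cKO above in 5 members (6.15% of all genes) and below in 1 (3.17%). The members of cKO replicate 1 had a median deviation of -0.10 and those of replicates 2 and 3 of 0.057 and 0.058. Without replicate 1 the median difference was 0.069 and 6 members were below 0. Leptomeningeal markers lay below 0 in 20 of 21 genes in this comparison (median -0.44), with mean levels of 6.94 to 7.84 in cKO and 7.53 to 8.05 in control arrays, and their part in the members' values was not tested.

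At 8 weeks the members of these arrays lay on 1 side of 0. Of the 93 members 86 were below 0, where 56.2% of all genes were, and the median difference was -0.071, against -0.017 for all genes. No member was called (0% of all genes; limma, FDR 15%). At p under 0.05 none was higher and 6 were lower, against 2.28% and 3.69% of all genes. In 35 members every cKO array was below every control array, against 8.56% of all genes, and in none was every cKO array above (5.16%). All 8 subunits of complex III, all 4 of complex II, all 6 core subunits of complex I, 27 of its 28 accessory subunits, 16 of 18 members of complex IV and 16 of 17 of complex V were below 0. The members were far from independent of each other, as the first component shows, so these counts are a description and no test. The direction of the median did not depend on scaling (-0.070 on centred arrays and -0.062 after quantile normalization, with 85 and 84 members below 0). Without the cKO array that stood apart it was -0.076, against -0.011 for all genes, with 81 members below 0 (54.0% of all genes), and none higher and 4 lower at p under 0.05 (1.95% and 3.44% of all genes). The share of members at p under 0.05 was then 4.30%, near that of all genes. Of the 2 remaining cKO arrays both were below every control in 43 members, against 15.3% of all genes. Core subunits of complex I then counted 5 of 6 below 0, accessory subunits 27 of 28, complex II 3 of 4, complex III 6 of 8, complex IV 16 of 18 and complex V 15 of 17. Over the omission of each array it ranged from -0.084 to -0.064, with 80 to 88 members below 0.

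Cox8b, the muscle isoform of a complex IV subunit, had the lowest p among the members, at a level near the lowest kept. Its log2 values at 8 weeks were 5.14, 5.01 and 4.84 in cKO and 5.29, 5.41 and 5.79 in control mice, and at 4 weeks 5.18, 5.30 and 5.65 in cKO and 5.11, 4.78 and 5.12 in control mice. The groups were apart both times and in opposite directions, with cKO above at 4 weeks and below at 8 weeks. The difference was 0.38 at 4 weeks (SE 0.15, adjusted p = 0.990 from limma) and -0.50 at 8 weeks (SE 0.15, adjusted p = 0.797), and the interaction was -0.88 (SE 0.22, unadjusted p = 0.00174, adjusted p = 0.842). Without the array that stood apart the 8-week difference was -0.57.

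Ndufaf2, an assembly factor related to the subunit Ndufa12, was at 7.77, 7.79 and 7.98 in cKO and at 8.17, 8.10 and 8.06 in control mice at 8 weeks. The groups did not overlap (difference -0.27, SE 0.089, adjusted p = 0.797 from limma), and without the array that stood apart the difference was -0.23. Sdhaf3 was at 8.39, 8.61 and 8.67 in cKO and at 8.82, 8.73 and 8.93 in control mice, again without overlap and with the array that stood apart lowest. Its difference was -0.27 (SE 0.097), and -0.18 without that array, when its unadjusted p was 0.0796. The other members lower at p under 0.05 were Ndufaf6 (-0.22), Uqcrh, the hinge protein of complex III (-0.14), and Ndufb5, an accessory subunit of complex I (-0.15); these 3 were chosen after their values were seen. Without the array that stood apart they differed by -0.24, -0.11 and -0.15, with unadjusted p-values from limma of 0.0263, 0.134 and 0.0704 that rest on fewer arrays. At 4 weeks Ndufaf1 and Ndufs1 followed Cox8b in p, with differences of 0.12 and 0.13.

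**Figure D4:**
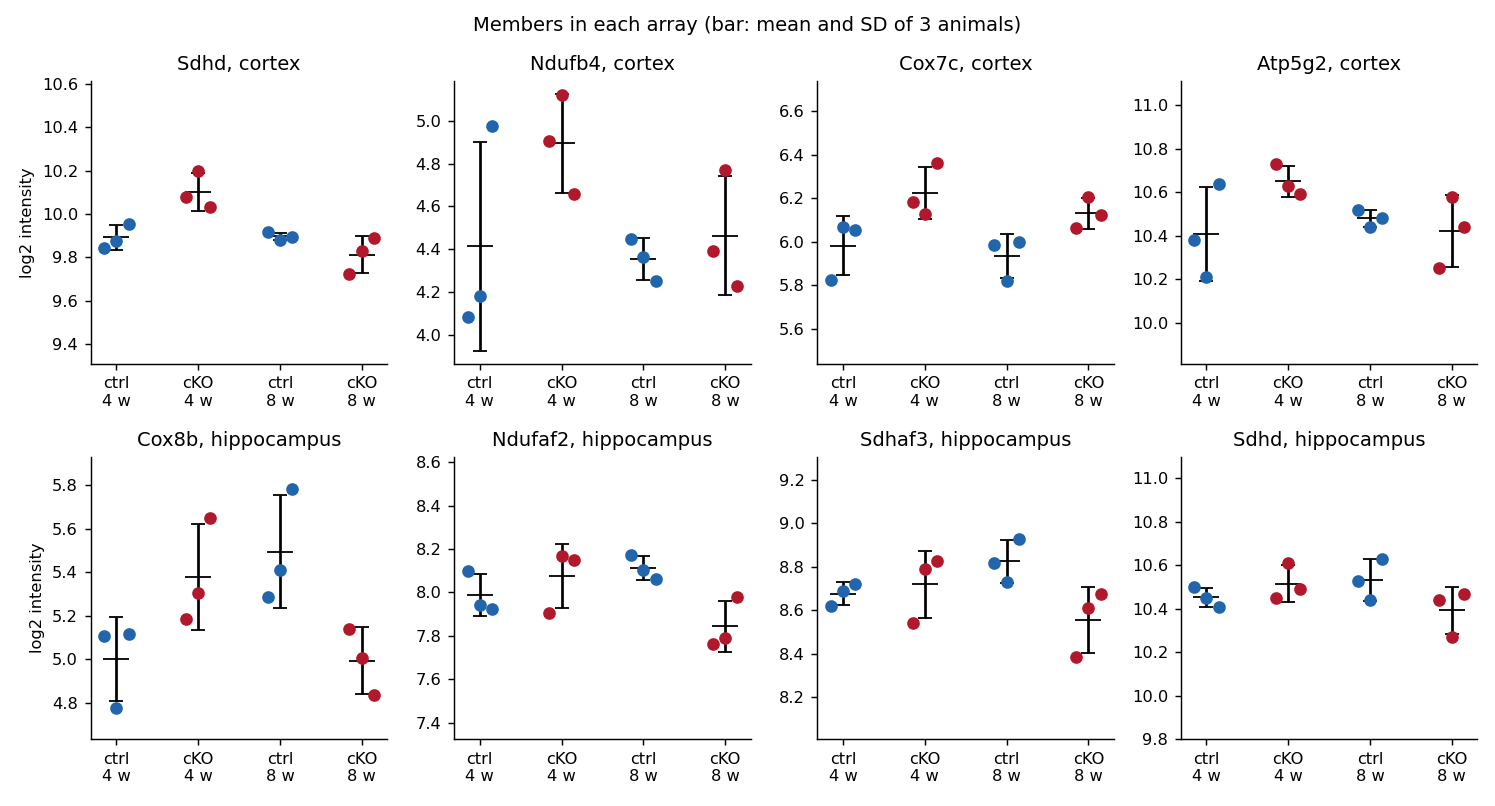
Log2 intensity of 7 members in each array (dot: 1 animal; bar: mean and SD of 3 animals), control in blue and cKO in red, for the cortex (top) and the arrays labelled hippocampus (bottom). In the bottom row the 3 red dots at 8 weeks lie below the 3 blue dots for Cox8b, Ndufaf2 and Sdhaf3, and the groups overlap for Sdhd.

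The interaction in the arrays labelled hippocampus had 89 of 93 members below 0, where 59.2% of all genes were, with medians of -0.083 and -0.032. No member was called (0% of all genes), none was higher and 6 were lower at p under 0.05 (2.31% and 3.47%). The lowest p was that of Cox8b, followed by Ndufaf2 (-0.35) and Ndufaf6 (-0.28). Without the array that stood apart 83 members were below 0, against 58.5% of all genes.

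Other mitochondrial lists in the same arrays at 8 weeks gave counts of the same kind. Of 76 mitochondrial ribosomal proteins 70 were below 0 (median -0.085), 3 of them at p under 0.05; of 30 further assembly factors and electron carriers 23 (median -0.086); of 17 genes of the Krebs cycle and pyruvate dehydrogenase 14 (-0.044); and of 21 genes of mitochondrial protein import 18 (-0.060). None was called, and 1 electron carrier or assembly gene was lower at p under 0.05 (limma). Outside mitochondria, 39 of 43 cytosolic ribosomal proteins were below 0 (-0.043), whereas 9 of 13 genes of glycolysis were above 0 (0.036). Among the 18 regulators of mitochondrial biogenesis 9 were on each side. Without the array that stood apart the counts below 0 were 71 of 76 mitochondrial ribosomal proteins, 24 of 30 assembly factors and carriers, 11 of 17 Krebs cycle genes, 16 of 21 import genes and 40 of 43 cytosolic ribosomal proteins, and 7 of 13 glycolysis genes were above 0, where 54.0% of all genes were below 0. Markers of other cells moved as well. Ependymal markers were above 0 in 10 of 10 (median 0.47, and 0.43 without the array that stood apart). Of 11 tested markers of excitatory neurons 9 were above 0 (median 0.36, and 0.10 without that array). Their median deviation was 0.82 in the array that stood apart and 0.054 and 0.078 in the other cKO arrays. Without that array 13 of 14 microglial, 10 of 13 endothelial and pericyte and 8 of 11 inhibitory neuron markers were below 0. Above 0 were 25 of 29 nuclear-retained and intron-rich transcripts, 14 of 21 leptomeningeal, 4 of 5 choroid plexus, 7 of 13 astrocyte and 6 of 13 oligodendrocyte markers. The 3′ minus 5′ signal of actin, a sign of RNA quality, differed by 0.084 (exact permutation p = 0.6, two-sided; with 3 against 3 the smallest is 0.1), and that of Gapdh by 0.070 (exact permutation p = 0.2). The part of these in the members' values was not tested.

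In the cortex at 4 weeks, where 8.39% of all genes were called, 74.5% were above 0 and the median was 0.12, 67 of the 76 mitochondrial ribosomal proteins were above 0 and 3 were called higher (median 0.14), 15 of 17 Krebs cycle genes were above 0 with 1 called (0.11), and 9 of 13 glycolysis genes (0.014; none called, none at p under 0.05 by limma). Of the 18 regulators of mitochondrial biogenesis 12 were above 0 and none was called, with 2 higher and 3 lower at p under 0.05. The lowest was Ppargc1a, the coactivator PGC-1α, at -0.81. The median over the 43 members with an NRF1, ETS or YY1 core in the promoter window was 0.085, and 0.056 over the 34 members with a window and none of them; in the arrays labelled hippocampus at 8 weeks the medians were -0.077 and -0.079, and -0.079 and -0.080 without the array that stood apart.

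Last, the change in the cortex at 4 weeks was set against that in another tissue. Against the hypothalamus, 84 members read from the same probe set in both tissues could be tested, with arrays of 1 animal taken as a block since 11 animals gave both tissues. The change was higher in the cortex for 11 members and lower for none (limma, FDR 15%), against 16.4% of all 13685 genes. At p under 0.05, 12 were higher and 2 lower (21.2% and 3.24% of all genes), and 27 were below 0 (25.0%). The members' share was thus below that of all genes, and the medians were 0.065 and 0.14. With each array centred on its median no member was called higher and 1 lower, against 2.92% of all genes, so the direction rests on the shift of the whole array.

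The 11 members, named here after their values were seen, were Sdhd, Sdhaf2, Uqcrfs1, Ndufs3, Ndufv1, Ndufa9, Ndufaf3, Ndufaf6, Ndufaf7, Atp5c1 and Atp5g2. Sdhd differed most clearly, with a change of 0.21 in the cortex and of -0.087 in the hypothalamus (difference 0.30, SE 0.084, adjusted p = 0.0720 from limma). Ndufaf3 had the largest difference of the 11, 0.38, and Atp5c1 the smallest, 0.19. In the cortex all 11 were above 0 and in the hypothalamus all 11 below 0, a direction that their choice by a higher change in the cortex favours. The count ran from 0 to 30 over the alternatives given under the processing, and none was left without cortex control replicate 1, cortex cKO replicate 2, hypothalamus control replicate 1 or hypothalamus cKO replicate 3 at 4 weeks, when 0.884% to 1.51% of all genes were called.

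**Figure D5:**
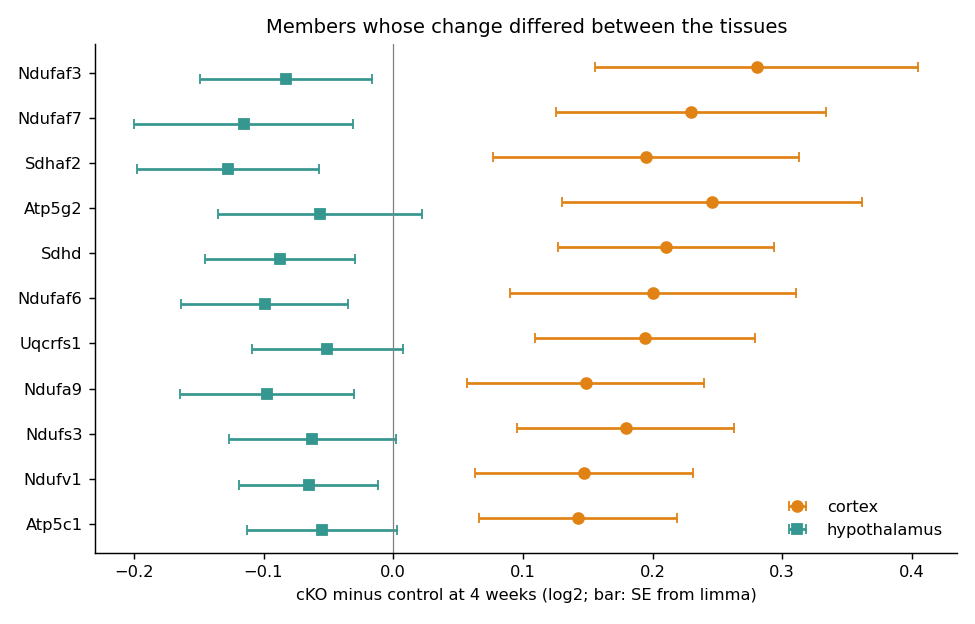
Difference between cKO and control mice at 4 weeks (log2, with the SE from limma) in the cortex (orange circles) and the hypothalamus (green squares) for the 11 members whose change differed between the tissues. The cortex values run from 0.14 (Atp5c1) to 0.28 (Ndufaf3), those of the hypothalamus from -0.13 (Sdhaf2) to -0.051 (Uqcrfs1).

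Against the arrays labelled hippocampus, none of 90 members was called (1.34% of all genes; limma, FDR 15%), 2 were higher and 1 was lower at p under 0.05 (11.2% and 1.99%), and 32 were below 0 (30.5%). The median was 0.044, against 0.099 for all genes, and -0.10 on centred arrays, with 76 members below 0. The lowest p was that of Cox6b2 (0.41, SE 0.15, adjusted p = 0.241 from limma), named after its value was seen. Without cortex control replicate 3 at 4 weeks 15 members (16.7%) were called, 13 higher and 2 lower, against 25.2% of all genes. Leptomeningeal markers moved here as well, 13 of 20 called higher with a median of 1.14, and their part in the members' values was not tested. No animal gave both tissues, so a difference between tissues cannot be told apart from one between sets of animals.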

How the data were processed

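Total RNA of 36 samples was hybridised to Affymetrix mouse arrays. The deposited values are log2 intensities that the authors obtained by RMA in Expression Console, run separately for each tissue. Levels were therefore set side by side between tissues only for the check of the labels. The version of Expression Console was not given in the sources used here. Groups came from the labels. Of 45101 probe sets, 34945 were annotated to 1 gene. Per gene and tissue the probe set with the highest mean was kept, then the 15000 genes with the highest third-highest value. All 12 arrays of a tissue were fitted with limma 3.58.1 (R 4.3.3), without covariates, with Benjamini-Hochberg adjustment over all genes at an FDR of 15%. The difference between cortex and hypothalamus was fitted with the animal as a block (statmod 1.5.0, correlation 0.1616). The hippocampus arrays came from other animals, so cortex against hippocampus was fitted without a block. The code was tested on simulated data. P-values from limma set a difference against the spread between animals within groups. That spread is pooled over all arrays of the fit and drawn towards that of all genes. With 3 animals a group, the number of arrays limits the precision.

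Members, lists and alternatives were chosen with earlier results of these data known. Named were the 2 members with the lowest p in complex I core, complex I accessory, complex I assembly, complex II, III, IV and V in the cortex at 4 weeks, the 3 with the lowest p in each other comparison with control and each interaction, and the isoform pairs. Equal replicate numbers were checked for pairing: in the hypothalamus at 8 weeks the correlations of deviations were 0.197, 0.259 and 0.296, all above 0.1, and elsewhere at least 1 of 3 was not.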

Additional observations from a re-analysis of the deposited data

Results flagged for a closer look

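For 11 members the change in the cortex at 4 weeks differed from that in the hypothalamus by the test of the difference itself (limma, FDR 15%), where 16.4% of all genes did. The difference of the changes, cortex minus hypothalamus on the log2 scale, was 0.30 for Sdhd and 0.33 for Sdhaf2 of complex II and its assembly, 0.24 for Ndufs3, 0.21 for Ndufv1 and 0.24 for Ndufa9 of complex I, 0.38 for Ndufaf3, 0.30 for Ndufaf6 and 0.35 for Ndufaf7 among the assembly factors of complex I, 0.25 for Uqcrfs1 of complex III, and 0.19 for Atp5c1 and 0.32 for Atp5g2 of complex V. Adjusted p-values from limma ran from 0.0720 for Sdhd to 0.149 for Ndufa9 and Atp5g2. With arrays centred on their medians none of the members was called higher.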

How the results depend on the processing

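Counts of called members stayed within 1.5 times of the reported count in 272 results by setting and left that range in 35, all of them in 4 comparisons that involve the cortex at 4 weeks. With array weights 43 members were called in the cortex at 4 weeks, 32 in the interaction of the cortex, 27 in the cortex against the hypothalamus and 23 against the arrays labelled hippocampus, where 57.2%, 37.2%, 48.5% and 34.9% of all genes were called. Without the 3 cortex arrays that stand apart, picked from these same data, these counts were 38, 35, 30 and 20, and the shares of all genes 54.7%, 40.4%, 51.4% and 35.2%. The members' share was below that of all genes in these 8 counts. Leaving out 1 array at a time gave 0 to 29, 0 to 1, 0 to 28 and 0 to 15. The calls among all genes then ran from 6 to 6373 and 1 to 567 of 15000, 121 to 5840 of 13685 and 49 to 3458 of 13743. The range of the members thus went with a wide range over all genes. In the cortex against the hypothalamus 0 were called at an FDR of 5%, 1 at an FDR of 10%, 5 without the filter, 7 on the probe set with the highest variance, 1 on centred arrays, 0 after quantile normalization, 4 with the actin covariate and 1 with animals taken as independent. Without the share of all genes beside them, the counts under these settings are no result about the members. The cause of the changes in count was not tested. An unpaired t-test, which the study used for measures other than the arrays, called 0 members after Benjamini-Hochberg in the 6 comparisons with control. At an unadjusted p under 0.05 it gave 11 higher and 1 lower in the cortex at 4 weeks (10.9% and 1.11% of all genes) and 0 higher and 23 lower in the arrays labelled hippocampus at 8 weeks (2.05% and 4.17%). Medians of the members moved by more than the spread in 16 results by setting and not in 291. The spread here is the SD, within groups, of the members' median deviation per array. For 20 results, each a named member in 1 comparison, 58 values passed the FDR threshold under an alternative.

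With the replicate number as a block, 5 members were called in the cortex against the hypothalamus and 0 in every other comparison. The main fit called 11 of 84 members there, against 16.4% of all genes. The share of all genes under the block is not given here, so the 5 are no result about the members. In the hypothalamus at 8 weeks, where the correlations of like-numbered arrays were all above 0.1, the block changed no call of a member. The labels do not say that equal numbers pair animals.

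Differences of 12 named members changed sign under an alternative, none of them called. In the cortex at 4 weeks centring gave -0.037 for Sdhb, -0.094 for Cox4i1, -0.019 for Cox6a2, -0.047 for Cox6b1, -0.011 for Cox8a, -0.061 for Ndufa4 and -0.014 for Atp5g1. The actin covariate gave -0.0017 for Cox4i1, -0.17 for Cox6a2, -0.051 for Cox8a, -0.017 for Atp5g1 and 0.058 for Atp5g3, and -0.058 for Atp5e in the hypothalamus at 8 weeks. The probe set with the highest variance gave -0.023 for Sdhd and 0.094 for Cox6a1, the mean of probe sets 0.029 for Cox6a1, and array weights 0.0028 for Cox8b. Leaving out 1 array at a time, Cox6a2 ranged from -0.076 to 0.38, Cox8b from -0.20 to 0.083 and Atp5g3 from -0.14 to 0.024. The number of arrays, 3 a group, limits the precision, and Ndufb4, Cox4i2 and Cox8b were read near the lowest level kept.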
